A study of Mus musculus with 24 samples.

Results

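RNA bound to STAU2 in the mouse embryonic cortex was compared between late and early cortical development, at E17.5 and E11.5, where the number after E is the embryo's age in days. The unit of comparison is a row of the authors' table of merged peaks, that is, 1 stretch of 1 strand in which immunoprecipitated RNA was counted, together with the gene it lies in. Rows with a gene symbol that the table does not place between genes numbered 14292 of 18975, and they belong to 7967 genes. All libraries came from brain cortex of C57BL/6 embryos, with no mutation or treatment named in the labels. Each stage had 3 libraries of RNA pulled down with an antibody against STAU2. The table's columns carry only a stage and a replicate number, which fit both a pull-down and its input, and they were read as the pull-downs because the table lists peaks. Inputs were not analysed here, so a row can change because the amount of the RNA changed, its binding, or both. The labels do not say whether replicates came from separate embryos or litters, and p-values therefore measure only the spread between these libraries. In whole tissue, fewer cells of a type and less RNA per cell cannot be told apart.

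STAU2 is a protein that binds double-stranded stretches of RNA, often in 3′ untranslated regions (3′ UTRs), and travels with its cargo in RNA granules along microtubules. In the developing cortex it is known to be inherited unequally when radial glia, the stem cells lining the ventricle, divide. The early cortex consists mainly of dividing progenitors, and by late gestation it holds layered projection neurons, arriving interneurons and the first glia. A classical switch in this period involves the let-7 microRNAs, which accumulate as progenitors mature and pair with sites in mRNAs of the Hmga and Lin28 families.

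Of the 12 named rows with the largest falls by E17.5, those of Hmga2, Igf2bp2, Col1a2 and Col3a1 hold a match to the let-7 seed. They are shown because they lie in the bound stretches that fell most; the microRNAs themselves were not measured. A match to miR-128, one of the other microRNAs looked for, is in 3 of the 12 rows, those of Tmem123, Nr1h5 and Col3a1, so matches are not particular to let-7. The mature microRNA is printed from RefSeq (GRCm38.p6), 5′ to 3′, with its seed, bases 2 to 8, in capitals. The sites are printed from GENCODE transcripts (GRCm38), 5′ to 3′, with the 7 bases that pair with the seed in capitals and 11 bases on each side.
mmu-let-7b-5p: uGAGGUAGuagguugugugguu
Hmga2 3′ UTR, chr10:120361681-120361709, minus strand: aaaacacactaCTACCTCttaagtcccag
Igf2bp2 3′ UTR, chr16:22059463-22059491, minus strand: acaaataaaagCTACCTCaggtgtttttt
Col1a2 3′ UTR, chr6:4541066-4541094, plus strand: aaaggtttgaaCTACCTCaagacactttg
Col3a1 3′ UTR, chr1:45349139-45349167, plus strand: ccctatgttaaCTACCTCaactggtcaga

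The whole table gives the scale for these values. Totals over gene rows were 4685708 to 5616147 counts in the 6 libraries compared. Correlations of log values between libraries were 0.900 to 0.925 within E11.5, 0.919 to 0.939 within E17.5 and 0.560 to 0.606 between the stages. Values are given as CPM, counts scaled to a common library size after TMM, a method that sets the typical row to no change. The E11.5 libraries had scaling factors of 0.490 to 0.604 against 1.18 to 1.23 at E17.5, and their 10 highest rows held 59.7% of the counts. When libraries are scaled by their gene-row totals instead, here called plain scaling, the median log2 change of all rows moves from 0.02 to 1.19, so each change below is relative to the typical row. Direction was checked under that scaling, and lists or genes whose direction does not hold are named where they appear.

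Bound RNA differed between the stages in a large part of the rows. Of 14101 rows with enough counts to test, 7321 (51.9%) passed edgeR's quasi-likelihood test at an adjusted p of 0.05, 3646 of them higher (25.9%) and 3675 lower (26.1%) at E17.5. The 3 libraries of 1 stage lay apart from the 3 of the other in 57% of the tested rows. Changes were large: 1652 of the rows that rose did so at least 4-fold and 380 at least 16-fold, against 1617 and 260 of those that fell. Summed per gene, 2265 of 7873 tested genes rose (28.8%) and 2281 fell (29%). Under plain scaling, 7814 rows were called higher and 1301 lower. The median rise was 1.89 and the median fall -1.86 on the log2 scale. A ± after a log2 change is a standard error worked back from the test's F statistic, with the spread estimated over 12 libraries. After a CPM or a percentage, ± is the SD of 3 libraries.

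The 12 largest rises were in rows of Camk2b, Nfix, Sst, Hpca, Npy, Mapt, Snap25, Fam163b, L1cam, Foxo6, Dync1i1 and Rph3a. Camk2b, a subunit of calcium/calmodulin-dependent kinase II that is abundant at synapses, had a row in a coding exon (chr11:5982299-5982703, minus strand) at 0, 0 and 0.376 CPM in the E11.5 libraries and 194, 453 and 220.3 at E17.5. Only 1 count was seen at E11.5, and the ratio was 2464-fold (95% exact binomial interval 442 to 97333). Hpca, the neuronal calcium sensor hippocalcin, went from 0.295, 1.14 and 0 CPM to 177, 169 and 90.6 in its 3′ UTR row. All 3 libraries of E17.5 stood above those of E11.5 for every row in this group, since the selection required it.

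Npy, the precursor of the neuropeptide Y of interneurons, had 0.295, 0 and 0 CPM at E11.5 and 129.8, 91.7 and 128 at E17.5, a ratio of 1020.1-fold (95% exact binomial interval 183 to 40310.2); the table places this row in an exon and GENCODE places its centre in an intron. Sst, the precursor of somatostatin, another interneuron peptide, rose from 2.36, 1.14 and 4.13 CPM to 261, 241 and 318, a log2 change of 6.74 ± 0.61. Rph3a, which encodes rabphilin, an effector of Rab3 on synaptic vesicles, had 0.295, 0 and 0 CPM and then 71.9, 90.4 and 85.5, with a ratio of 717-fold (95% exact binomial interval 128 to 28329). Fam163b had no count at E11.5 in this row and 50.2, 79 and 171 CPM at E17.5, which makes it at least 296-fold higher when E11.5 is set to a floor of 3 counts summed over its libraries. Foxo6, a forkhead transcription factor, was at 1.18, 1.52 and 0.752 CPM and then 123, 136 and 175 (6.95 ± 0.50 on the log2 scale).

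Mapt, which encodes the microtubule-binding protein tau, rose from 3.83, 11.8 and 5.26 CPM to 518, 562 and 338 in its 5′ UTR row (chr11:104231513-104231657, plus strand). L1cam, a cell adhesion molecule of growing axons, rose from 11.2, 9.5 and 7.52 CPM to 287, 859.7 and 542, with a log2 change of 5.90 ± 0.52. Dync1i1, an intermediate chain of the dynein motor, rose by 6.63 ± 0.49 on the log2 scale. Nfix, a transcription factor of the nuclear factor I family, rose from 5.89, 9.12 and 12.4 CPM to 602, 1040.3 and 767 in a 3′ UTR row. Snap25 is described below with the other genes of vesicle fusion.

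**Figure D1:**
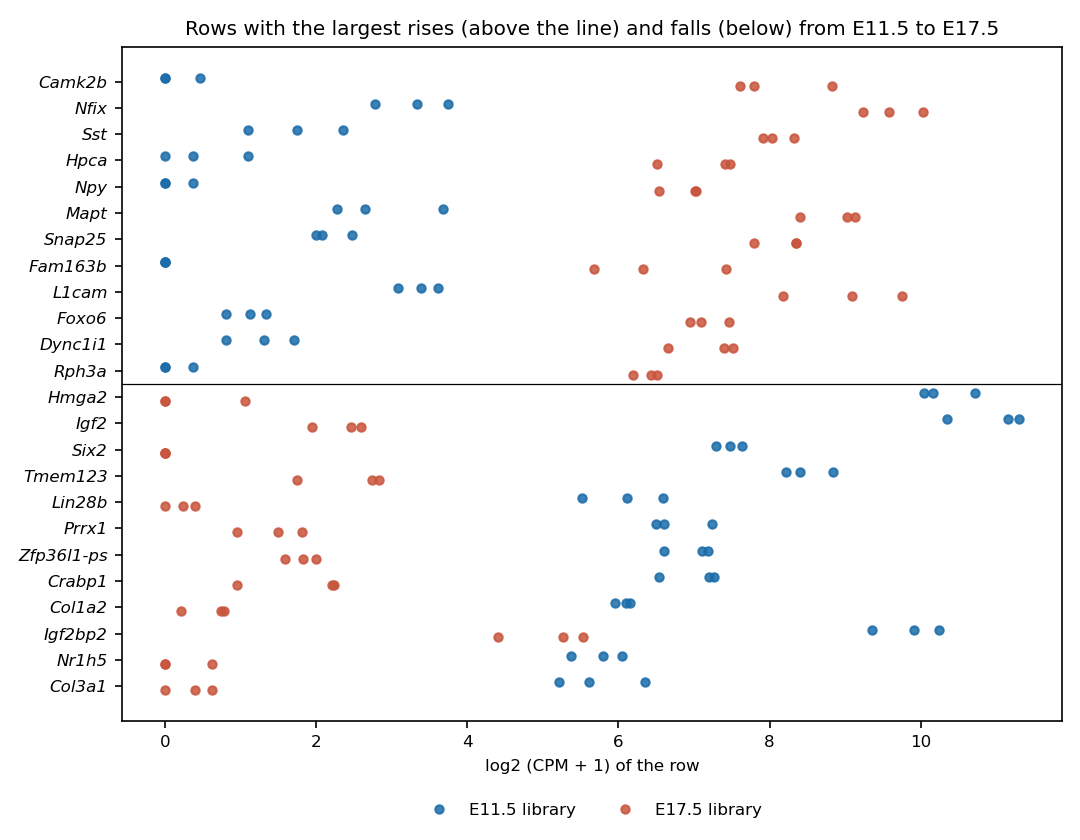
Level of the 12 rows with the largest rises and the 12 with the largest falls, as log2 of CPM plus 1, with 1 point for each of the 3 E11.5 and 3 E17.5 libraries. The points of the stages lie apart in every row, which the selection of these rows required.

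The 12 largest falls were in rows of Hmga2, Igf2, Six2, Tmem123, Lin28b, Prrx1, Zfp36l1-ps, Crabp1, Col1a2, Igf2bp2, Nr1h5 and Col3a1. Hmga2, a chromatin protein of young stem cells, had 1144, 1057 and 1691 CPM in its downstream 3′ UTR row at E11.5 and 0, 1.09 and 0 at E17.5 (-11.81 ± 0.76 on the log2 scale). Lin28b, which blocks let-7 maturation, went from 44.8, 68.4 and 95.4 CPM to 0, 0.181 and 0.314, a ratio of 401-fold (95% exact binomial interval 137 to 1951). Igf2bp2, an mRNA-binding protein of the same early program, fell from 654, 1206 and 959 CPM to 37.5, 45.2 and 20.1 in its 3′ UTR row (-4.78 ± 0.43 on the log2 scale).

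Igf2, a fetal growth factor, fell from 1304, 2284 and 2529 CPM to 2.86, 4.52 and 5.03 in its 5′ UTR row, a log2 change of -8.94 ± 0.65. Crabp1, a retinoic acid-binding protein, fell from 153, 92.3 and 145 CPM to 3.69, 3.62 and 0.943 in a coding exon. Six2, a homeobox gene, went from 198, 156 and 178 CPM to no count in any E17.5 library, which makes it at least 1064-fold lower. Prrx1, a homeobox gene of mesenchyme, fell from 89.3, 96.5 and 149.6 CPM to 2.52, 1.81 and 0.943. Collagen rows also belonged to the largest falls, with Col1a2 at 61.3, 67.6 and 70.3 CPM and then 0.672, 0.723 and 0.157, and Col3a1 at 36.2, 80.9 and 47.7 and then 0, 0.543 and 0.314. Tmem123, which encodes a membrane protein, fell from 338, 458 and 296 CPM to 5.71, 6.15 and 2.36. Nr1h5, a nuclear receptor gene, had 54.5, 40.3 and 65.4 and then 0, 0.543 and 0, a ratio of 318-fold (95% exact binomial interval 108 to 1549). Zfp36l1-ps, a pseudogene whose reads may belong to its parent gene, had 96.6, 137 and 145 CPM and then 2.02, 2.53 and 2.99.

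A pair of coding windows of 145 bases show how different in sequence and predicted structure the rows that fell can be. They are the named rows in coding exons whose exonic part is long enough, and capitals mark the bases that RNAfold pairs in the structure of lowest energy.
Crabp1, chr9:54765509-54765653, plus strand: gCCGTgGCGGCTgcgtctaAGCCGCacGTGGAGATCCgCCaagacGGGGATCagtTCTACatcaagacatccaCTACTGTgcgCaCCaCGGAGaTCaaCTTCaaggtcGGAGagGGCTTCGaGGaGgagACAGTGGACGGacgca
Tmem123, chr9:7790928-7791072, plus strand: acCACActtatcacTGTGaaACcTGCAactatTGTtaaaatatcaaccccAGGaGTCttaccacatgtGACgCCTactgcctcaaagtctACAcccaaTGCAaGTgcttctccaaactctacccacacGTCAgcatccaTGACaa
The Crabp1 window has 60% GC, 86 paired bases and a predicted energy of -51.1 kcal/mol. The Tmem123 window has 45.5% GC, 46 paired bases and -16.7 kcal/mol. The table calls this Tmem123 row 3UTR, whereas GENCODE places it in a coding exon.

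Genes of early progenitor timing fell together. All 5 measured of 10 listed genes were lower, against 29% of all genes, with a median log2 change of -4.84 where that of all genes was 0.03. Members of this list and the later ones were chosen with earlier results of these data known, so such counts are only a description. Hmga2 summed over its 3 rows fell from 2013, 1777 and 2312 CPM to 0, 1.6 and 0. Hmga1, its relative, fell from 361, 382 and 468 to 38, 40.5 and 27.6 CPM (-3.51 ± 0.27), and Arid3a, a DNA-binding regulator, from 12.5, 11.4 and 12.3 to 1.82, 0.888 and 1.26 (-3.17 ± 0.45). The direction of all 5 held under plain scaling. The lists that follow are to be read beside the shares over all genes tested, 28.8% higher and 29% lower.

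Progenitor RNAs divided into groups that fell and groups that did not move as one. Of 22 measured genes of mitosis, 21 were lower (95.5%, against 29% of all genes) and none higher, with a median of -2.43. Under plain scaling 16 were lower. Bub1b, a kinase of the spindle checkpoint, fell from 29.9, 36.8 and 33.2 CPM to 5.45, 3.2 and 3.79, and Tpx2, a spindle assembly factor, from 193, 209 and 161 to 50.1, 38.7 and 39.5. Kif14 and Cenpe, motor proteins of dividing cells, fell by log2 changes of -2.99 ± 0.34 and -2.87 ± 0.33. The libraries of the 2 stages did not overlap for these 4 genes, as was so for 62.5% of all genes tested.

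DNA replication genes were lower in 5 of 9 measured and higher in none, and 3 were lower without E17.5 replicate 1 or without E17.5 replicate 3. Uhrf1, which maintains DNA methylation after replication, fell from 213, 197 and 159 CPM to 25.6, 30 and 21.5 (-2.89 ± 0.27). Mcm4, a helicase subunit, was -1.06 ± 0.36 on the log2 scale, but this turned to 0.16 under plain scaling, under which 1 gene of the list was lower and 3 higher.

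Radial glia markers were mixed, with 7 lower (53.8%) and 4 higher (30.8%) of 13 measured, against 29% and 28.8% of all genes. Only 2 were higher without E11.5 replicate 1 or without E17.5 replicate 3. Emx2, a cortical patterning factor, fell from 578, 593 and 298 CPM to 34.9, 24.3 and 22.4, and Prom1, a membrane protein of progenitors, from 109.9, 78.1 and 75.6 to 19.2, 6.22 and 8.53. Fabp7, a fatty acid-binding protein of radial glia, rose from 125, 111 and 97.6 to 1023, 939.5 and 647 CPM (2.97 ± 0.33). Lhx2, a LIM-homeobox factor, had a log2 change of -1.28 ± 0.24, near the shift between scalings, and under plain scaling 2 of the 13 genes were lower and 6 higher.

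Intermediate progenitor genes did not follow the order of the stages. Of 9 measured, 4 were lower (44.4%) and 3 higher (33.3%) at E17.5, beside 29% and 28.8% of all genes. None of these 7 had its stage means in order. Without E11.5 replicate 2 only 1 was higher. Neurog1, a proneural factor, was at 38.6 ± 14 CPM (SD, n = 3) at E11.5. It was higher at E13.5, with 83.8 ± 22.6, and at E15.5, with 75.7 ± 23.4, and lower at E17.5, with 2.74 ± 0.872. Nhlh1, a transcription factor of newborn neurons, was at 58.1 ± 15.7, 181 ± 42.8, 203 ± 98.9 and 14.1 ± 2.98 CPM from the first stage to the last. Under plain scaling 2 of the 9 were lower and 5 higher.

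Neuronal RNAs rose. Of 15 measured pan-neuronal genes 13 were higher (86.7%, against 28.8% of all genes) and 1 lower, with a median log2 change of 2.64. Snap25, a protein of vesicle fusion, rose from 10.2, 14.8 and 6.17 CPM to 576, 512 and 544. Rbfox3, which encodes the nuclear neuronal marker NeuN, rose from 20.6, 34.1 and 31.3 to 701, 833 and 758 CPM (4.74 ± 0.32). Neurod6, a transcription factor of projection neurons, rose from 12.8, 25.4 and 18.9 to 837, 862 and 610.4, but was already at 753 ± 147 CPM at E13.5. Members that went against their list are named in this and the next paragraphs because of their values: here it was Elavl4, an RNA-binding protein of neurons, with -0.59 ± 0.24, which turned to 0.61 under plain scaling and 0.38 with the total over every peak. It kept its call in only 1 of the 6 fits that leave out a library, that without E17.5 replicate 3.

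Synaptic genes rose on both sides of the synapse. Of 17 measured genes of transmitter release 14 were higher and none lower (median 3.62). Rab3a, a vesicle GTPase, rose from 10.5, 5.31 and 6.56 CPM to 189, 102 and 177. Cplx1, which encodes complexin, rose from 6.87, 11.8 and 5.79 to 165, 207 and 261 CPM (4.70 ± 0.43). Ppfia2, a scaffold of the active zone, had 0.598, 0 and 0 CPM and then 34, 38.5 and 51.8, a ratio of 179-fold (95% exact binomial interval 49.3 to 1479).

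Postsynaptic genes were higher in 9 of 13 measured and lower in 2. Shank1, a scaffold of the postsynaptic density, rose from 10.2, 14 and 11.2 CPM to 345, 418 and 397. Grin1, the obligatory subunit of NMDA receptors, rose from 0.299, 0 and 1.16 to 33.2, 40.3 and 31.1. Members of 1 family moved in opposite directions: Dlg2 had 0.299, 0.379 and 0 CPM and then 24.6, 33.4 and 19.6, a ratio of 109.8-fold (95% exact binomial interval 30.2 to 909), whereas Dlg1 fell from 63.6, 58 and 56 to 7.93, 9.77 and 11.2 (-2.62 ± 0.26). The other one that was lower was Homer2, with -2.73 ± 0.40.

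Calcium and calmodulin signalling genes were higher in 9 of 16 measured and lower in 1 (median 1.73). The lower one was Atp2b1, a calcium pump, with -0.77 ± 0.30, which turned to 0.44 under plain scaling and passed in only 1 of the 6 fits that leave out a library, again that without E17.5 replicate 3. Under plain scaling 14 of the 16 were higher. Camkv, a kinase-like protein of vesicles, rose from 7.77, 9.86 and 5.4 CPM to 216, 159.9 and 232. Ryr3, a channel that releases calcium from internal stores, had no count at E11.5 and 23.6, 30.2 and 34.8 CPM at E17.5, at least 84.6-fold higher. Ion channel subunits were higher in 9 of 11 measured and lower in 1, the sodium channel Scn8a (-1.66 ± 0.39), which did not pass under plain scaling (-0.44). Among them the calcium channel subunits Cacna1b and Cacna1e rose by 5.27 ± 0.55 and 5.38 ± 0.58, and Kcnq3, a potassium channel, by 5.95 ± 0.69, although the last had counts in only 1 of the 3 E11.5 libraries.

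Microtubule genes, which concern the tracks on which STAU2 granules travel, were all higher: 17 of 17 measured, of 19 listed, with a median of 2.22 and the same direction under plain scaling. Stmn4, a regulator of microtubule assembly, rose from 19.4, 18.6 and 19.3 CPM to 623, 473 and 647 (4.93 ± 0.27). Tubb2a, a beta-tubulin, rose from 53.2, 20.5 and 40.9 to 744, 1073 and 870.5 CPM. Map6 and Dst, which stabilize or crosslink microtubules, rose by 4.11 ± 0.30 and 3.05 ± 0.29. Tubulin genes have near-identical copies, and how reads mapping to several places were counted is not given in the sources used here.

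Motor genes were higher in 12 of 16 measured and lower in 2, Myo10 (-1.81 ± 0.24) and Kif5b (-1.01 ± 0.39, which turned to 0.23 under plain scaling). Only 1 motor gene was lower without E11.5 replicate 3 or without any 1 of the E17.5 libraries. Kif21b, a kinesin, rose from 12, 12.5 and 7.72 CPM to 94.2, 150.5 and 137, Klc1, a kinesin light chain, from 216, 175 and 243 to 1188, 1105 and 1583, and Dctn1, a subunit of dynactin, from 25.7, 16.7 and 16.6 to 72.2, 77.4 and 100.2. The log2 changes were 3.56 ± 0.29, 2.61 ± 0.29 and 2.08 ± 0.27. Axon guidance genes were less uniform, with 8 higher (50%) and 3 lower (18.8%) of 16, beside 28.8% and 29% of all genes. Unc5a, a netrin receptor, rose from 2.69, 1.52 and 3.47 CPM to 32.6, 33 and 33.7, whereas Efna5, an ephrin, fell from 13.1, 30.3 and 25.1 to 4.96, 6.04 and 2.84 (-2.30 ± 0.41). Dcc and Nrp2, guidance receptors, were lower too, with -1.30 ± 0.36 and -2.19 ± 0.63, and under plain scaling 1 gene of the list was lower.

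**Figure D2:**
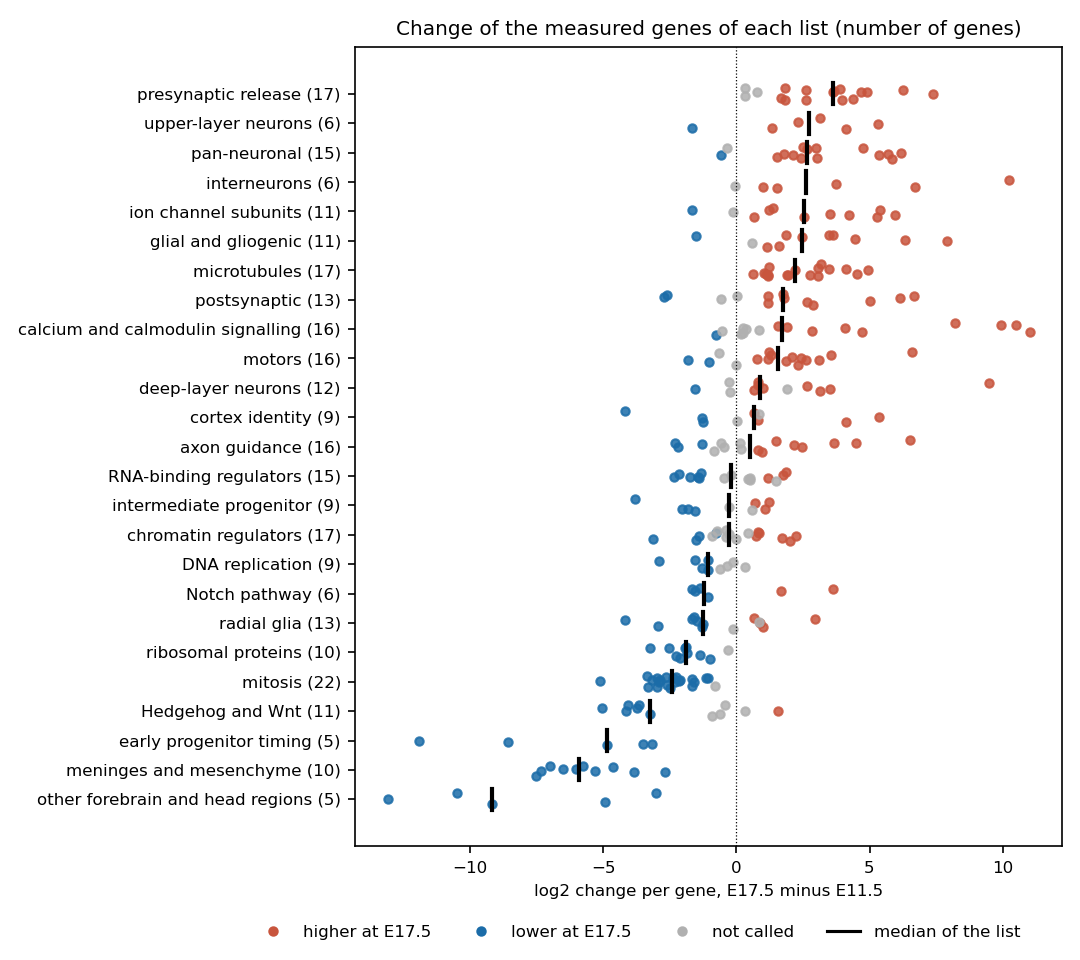
Log2 change per gene from E11.5 to E17.5 for the lists with at least 5 measured genes, ordered by their median (black bar). Each point is a gene, red where it was higher, blue where lower and grey where it did not pass. The medians run from -9.18 for genes of other forebrain and head regions, or -6.19 with 3 genes at 0 counts set to their bound, to 3.62 for transmitter release.

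Layer markers were mostly higher. Of 12 measured deep-layer genes 8 were higher and 1 lower, and of 6 upper-layer genes 5 were higher and 1 lower. The lower ones were Foxp2 (-1.57 ± 0.34) and Cux1 (-1.66 ± 0.28), and neither passed under plain scaling (-0.36 and -0.44). Dok5, an adaptor protein, rose from 3.59, 6.82 and 5.79 CPM to 170.4, 235 and 237. Ntsr1, the neurotensin receptor of deep-layer neurons, had no count at E11.5 and 11.2, 16 and 17.4 CPM at E17.5, at least 42.5-fold higher. Ldb2, a cofactor of LIM-domain proteins, rose by 3.52 ± 0.28.

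Interneuron genes were higher in 5 of 6 measured, with Gad1, an enzyme of GABA synthesis, at 2.39, 1.14 and 1.54 CPM and then 18.3, 27.9 and 23.4. Genes of Cajal-Retzius cells went both ways: Reln rose from 5.08, 1.14 and 0.772 CPM to 63.1, 45.8 and 41.5, and Ebf2 fell from 20.3, 46.3 and 23.5 to 0.661, 0.533 and 0.474. Glial and gliogenic genes were higher in 9 of 11 measured, of 20 listed, and lower in 1. The lower one was Sox9 (-1.50 ± 0.29), which did not pass under plain scaling (-0.28). Gfap, Aqp4, Aldh1l1, S100b and Olig1 were among the listed genes without a row. The 9 that rose had covered a median of 93% of their log2 change by E13.5, and 1 had its stage means in order. Bcan, a brain proteoglycan, had 0.299, 0 and 0 CPM and then 26.4, 38.5 and 32.5, a ratio of 278-fold (95% exact binomial interval 49.6 to 10984). Sparcl1, a matrix protein of astrocytes, rose from 2.09, 1.9 and 3.09 to 38.3, 26.1 and 24.2 CPM.

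Signalling genes of early patterning fell. Of 11 measured genes of the Hedgehog and Wnt pathways 6 were lower and 1, Apc, was higher (1.55 ± 0.47). Lef1, a transcription factor at the end of the Wnt pathway, fell from 79.2, 117 and 104 CPM to 2.98, 2.84 and 3.32. Sfrp1, a secreted Wnt inhibitor, fell from 572, 513 and 483 to 56.2, 50.4 and 57.8, and Gli3, a Hedgehog effector, from 163, 204 and 228 to 7.93, 14.6 and 12.8. Under plain scaling 6 were lower and 2 higher. In the Notch pathway 4 of 6 measured were lower and 2, Numbl and Jag2, higher (1.69 ± 0.24 and 3.64 ± 0.78), but none was lower with that scaling. Rbpj, its DNA-binding effector, had -1.36 ± 0.23.

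RNA-binding and chromatin regulators were mixed. Of 15 measured RNA-binding genes 6 were lower (40%) and 3 higher (20%), and of 17 chromatin genes 4 (23.5%) and 6 (35.3%). Of all genes 29% were lower and 28.8% higher, so the shares of these lists are not far from those. The counts became 2 and 8, and 1 and 11, under plain scaling. The paralogues Nova1 and Nova2, neuronal splicing factors, moved apart: Nova1 fell from 258, 189 and 306 CPM to 36.4, 62.5 and 50.1, and Nova2 rose from 61.2, 80 and 68.7 to 244, 268 and 204. Ago2, the core protein of microRNA silencing, fell from 102, 103 and 133 to 17.4, 26.3 and 31.9 CPM (-2.16 ± 0.28). Suz12, a subunit of Polycomb complex 2, fell from 111, 236 and 138 to 16.7, 21.3 and 17.4, and Chd3, a remodeller, rose from 74.4, 76.2 and 76 to 335, 434 and 314.

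Ribosomal protein genes were lower in 9 of 10 measured, with 5 lower and 1 higher under plain scaling. Rplp1 fell from 3613, 3150.1 and 4468 CPM to 598, 345 and 259.7 and Rpl6 from 1314, 1798 and 1404 to 386, 265 and 394. These genes have many pseudogene copies, and their values are uncertain for that reason.

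The RNA of Stau2 itself did not pass per gene. Its rows numbered 6, of which 1, in the 3′ UTR, was higher (1.99 ± 0.38) and the others did not pass. Summed per gene the log2 change was 0.42 ± 0.26, and that of its paralogue Stau1 was 0.51 ± 0.28. Both are smaller than the shift between scalings, by which the median row moves from 0.02 to 1.19. They are relative to the typical row and do not show that these RNAs were unchanged. This also holds for the rows below that did not pass. Both rows of Bbs2, a protein of the cilium, were higher, with 2.80 ± 0.53 and 2.29 ± 0.78. Nr2f1, a factor of area patterning, had an exon row at 13.8, 15.2 and 16.2 CPM and then 59.1, 41.6 and 52.7 (1.76 ± 0.43), whereas its 5′ UTR row did not pass (0.75 ± 0.45), nor did the row of Nr2f2 (0.18 ± 0.44).

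Markers of meninges and of other head regions were far lower at E17.5 than at E11.5. All 10 measured meningeal and mesenchymal genes of 14 listed were lower, and their summed level was 387 to 478 CPM in the E11.5 libraries and 6.16 to 9.26 at E17.5. Col1a1, the main fibrillar collagen, had 52.9, 55.4 and 54.4 CPM and then 1.16, 1.42 and 1.42, with 103 ± 11.8 at E13.5. Genes of other forebrain and head regions were lower in all 5 measured of 14 listed, summing to 258 to 308 CPM at E11.5 and 2.64 to 7.46 at E17.5. Tfap2b, a factor of neural crest, had no count at E17.5 and was at least 179.9-fold lower. Six3, of the anterior forebrain and eye, fell from 36.7, 40.2 and 51.3 to 2.64, 7.46 and 5.53 CPM, and Tfap2a from 20.3, 27.3 and 13.9 to 0, 0 and 1.9.

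Blood and vessel genes were few. Of 14 erythroid genes only Ermap and Alas2 were measured, and they had 21.2, 13.6 and 20.8 and 12.2, 16.3 and 8.49 CPM at E11.5, with 1 count each at E17.5. The ratios were 338-fold (95% exact binomial interval 59.8 to 13436) and 223-fold (95% exact binomial interval 39.1 to 8874). Of the 4 measured endothelial genes Cdh5 and Tek were lower (-3.63 ± 0.52 and -3.37 ± 0.56), while Egfl7 and Kdr did not pass (-1.14 ± 0.56 and -0.59 ± 0.45). Among 4 measured microglia and macrophage genes, Pf4 had no count at E17.5 and was at least 53.2-fold lower, P2ry12 was higher (1.79 ± 0.64) but did not pass without E11.5 replicate 1, E11.5 replicate 2 or E17.5 replicate 1, and Csf1r and C1qb did not pass (0.71 ± 0.45 and -0.07 ± 0.48). Choroid plexus genes were lower in 3 of 3 and in 1 under plain scaling. Ttr was at 526 ± 73.1 CPM at E13.5 against 6.28 ± 1.39 and 2.14 ± 0.868 at the end stages, Rspo3 had -1.83 ± 0.45, and Otx2 had no count at E17.5 and was at least 57.4-fold lower. The collagen, Prrx1 and Six2 rows among the largest falls belong to these lists, and the part that other tissue in the E11.5 samples has in the falls was not tested. Of 10 listed genes of cortex identity 9 were measured, summing to 2116 to 2786 CPM at E11.5 and 2552 to 3042 at E17.5. Their changes between the stages cannot show whether the samples are cortex. Of these 9 genes 4 were higher (44.4%, beside 28.8% of all genes) and 3 lower (33.3%, beside 29%), the last being Emx2, Lhx2 and Pax6. Under plain scaling 6 were higher and 1 lower, with Lhx2 at -0.07 and Pax6 at -0.02.

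Most of the rows called higher or lower moved step by step through the stages between. At E13.5 the rows that rose had covered a median of 42.3% of their log2 change, and at E15.5 60.5%, and 68.1% of them had their 4 stage means in order. Rows that fell had covered 46.8% and 63.3%, with 64.9% in order. Lists differed in this. Stage means were in order for 16 of the 17 microtubule genes that rose, but for 1 of the 9 glial genes that rose. Of the 10 meningeal and mesenchymal genes that fell, 2 had them in order. Genes of early timing that fell had covered a median of 59.1% by E13.5, mitotic genes 23.3%, microtubule genes 37.9%, and calcium and calmodulin genes 14.5%. Nfib, a nuclear factor I gene, was highest in between, at 140.1 ± 38.4, 1571 ± 179.7, 1496 ± 454 and 767 ± 81.8 CPM. These shares use the same end-stage libraries as the calls and are a description.

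**Figure D3:**
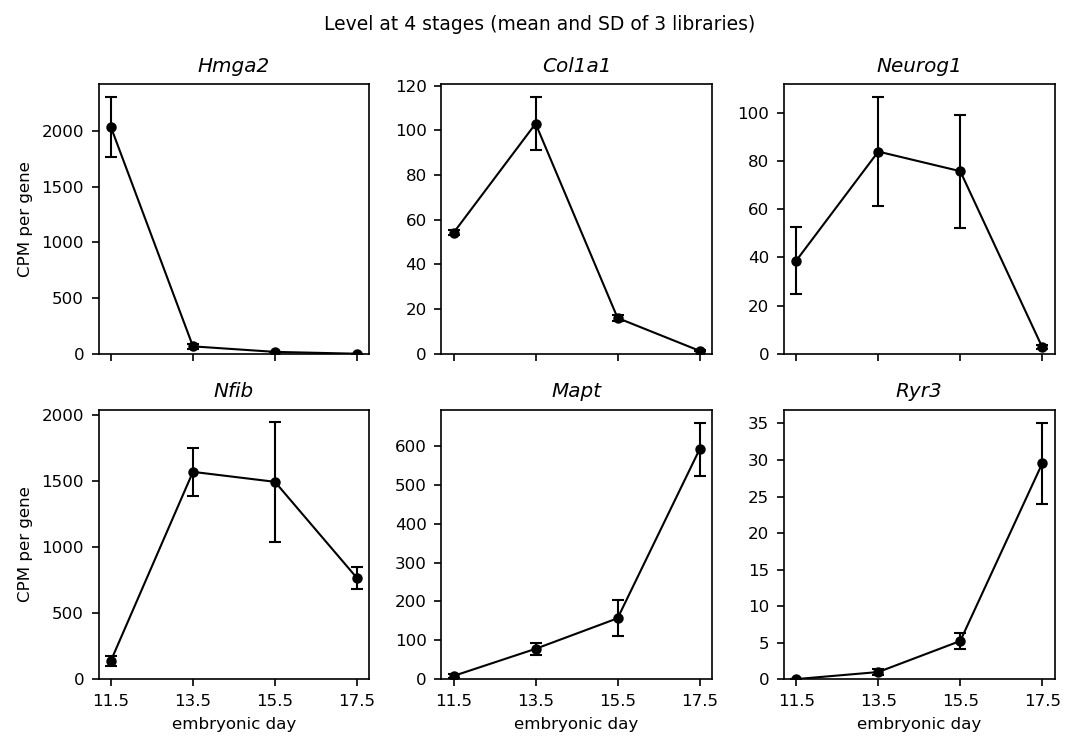
Level per gene in CPM at the 4 stages sampled for 6 genes picked, with their values known, to show different courses; points are means and bars the SD of 3 libraries. Col1a1, Neurog1 and Nfib were highest at a middle stage, Hmga2 was lower and Mapt and Ryr3 were higher at each later stage.

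Where in the gene the counts lay, by the authors' location classes, also differed. GENCODE places the peak centre of 1947 Exon, 458 3UTR and 405 5UTR rows in an intron, although those peaks overlap an exon. It places the centre of 922 3UTR rows in a coding exon. Rows called Intron held 61.1% ± 4.17 (SD, n = 3) of the gene-row counts at E11.5 and 27.7% ± 1.41 at E17.5. Rows called 3UTR held 19.3% ± 2.33 and 40% ± 0.93. The stages did not overlap, and the two-sided exact permutation test gave p = 0.1, the smallest that 3 against 3 libraries allow. The 10 highest rows of each library took 59.7% of its counts at E11.5 and 26.4% at E17.5. Without the 10 highest rows Intron rows held 12.8% ± 3.39 and 3.82% ± 0.67. The intron row of Cmss1 (chr16:57391299-57391733, minus strand) was the highest of all and fell by a log2 change of -2.38 ± 0.34. The other 9, among them rows of Kcnip1, Camk1d, Spata5, Gm19951, Lars2, Il31ra, Cdk8 and Tlcd4, were all lower, with log2 changes of -2.98 to -1.91. By call, 29.8% of 6640 tested rows in 3UTR were higher and 23.1% lower, against 17.9% and 36.5% of 1126 in 5UTR.

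Different rows of 1 gene sometimes moved apart. Whether a row changed against the other rows of its gene was tested for 9645 rows of 3414 genes with edgeR's test of differential usage, and 142 rows in 106 genes passed (1.47%), 58 higher (0.601%) and 84 lower (0.871%). Without rows called Intron 78 passed, 24 of them higher. The number higher was 38 without E11.5 replicate 1 and 36 without E11.5 replicate 2. In 53 genes 1 row was higher and another lower between the stages.

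Septin8, a cytoskeletal GTPase, had rows of the authors' 3UTR class that moved apart. The downstream 3UTR row (chr11:53548820-53549224, plus strand) had 3, 1 and 1 counts at E11.5 and 64, 102 and 101 at E17.5. The 3UTR row upstream (chr11:53543805-53543949, plus strand) had 37, 37 and 46 and then 18, 18 and 14. Relative to the gene, usage of the downstream row rose by 5.03 on the log2 scale (adjusted p = 1.18e-08) and that of the upstream row changed by -1.94 (adjusted p = 0.00364). The libraries of the stages did not overlap in either row. An Exon row further upstream was lower too (-1.10 ± 0.37), but its usage did not pass (-0.73). Whether the 3UTR rows belong to the same 3′ UTR was not tested.

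Lrrfip1, a nucleic acid-binding protein, showed the same order. Its most downstream row had 3, 2 and 3 counts and then 96, 85 and 148, and the 3UTR row before it 18, 16 and 12 and then 6, 5 and 1. Ptbp1, a splicing repressor of progenitors, had an upstream 3′ UTR row that fell from 122, 87 and 153 counts to 63, 53 and 67, and a downstream row with no count at E11.5 and 6, 22 and 13 at E17.5. Nisch, which encodes nischarin, had 3 Exon rows downstream that rose and a pair of upstream 3UTR rows that fell. In Gnas, which encodes the stimulatory G protein alpha subunit, an upstream 3UTR row rose from 15, 19 and 8 counts to 214, 167 and 210. The main row had a log2 change of -1.21 ± 0.37, near the shift between scalings, and its usage did not pass (-0.03).

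For other genes an intron row parted from the exon rows. Nfib had 5 rows that rose, with log2 changes of 2.22 to 2.91, and an intron row at 3, 23 and 11 counts and then 0, 3 and 2. Zswim8, part of an E3 ubiquitin ligase, had an intron row at 26, 14 and 11 counts and then 1, 0 and 0, against 13, 9 and 10 and 218, 160 and 230 in its exon row. In Gphn (gephyrin, the scaffold of inhibitory synapses) the 3′ UTR row rose from 46, 19 and 32 counts to 213, 125 and 266. Its intron row had far more, 67892, 46523 and 71159 counts at E11.5, and fell by a log2 change of -2.76 ± 0.36. Kcnip1, a potassium channel-interacting protein, gave the same contrast, with 1.36 ± 0.41 in its 3′ UTR row and -2.33 ± 0.40 in its intron row. In Gphn and Kcnip1 nearly all counts lay in the intron row, so usage of the other rows is measured mostly against that row. Crebbp and Gprasp1 also had a row whose usage passed, and Col26a1, Dnase2a and Galnt2l had rows in opposite directions. In Dnase2a, however, the row that fell was an Exon row. All 11 rows of Galnt2l were Intron rows, and none passed the usage test.

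The place of these rows along the gene was counted. Of the 58 rows whose usage rose, 44.8% were the most downstream of their gene, and of the 84 that fell 19%, where the share over all rows tested was 35.4%. Of those that fell, 44% were the most upstream, again beside 35.4% of all. Outside Intron rows the downstream shares were 49% and 21.7%. These are counts with no test, and no direction is read from them, because rows of 1 gene are not independent.

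**Figure D4:**
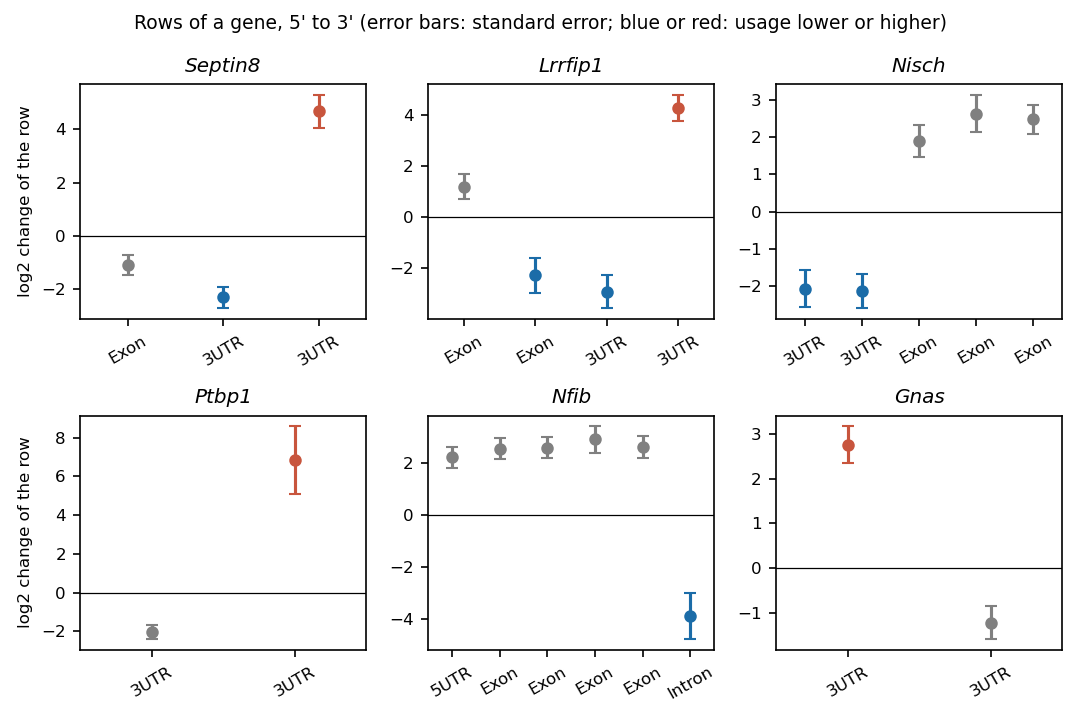
Log2 change from E11.5 to E17.5 of each tested row of 6 genes, in 5′ to 3′ order, with the table's location under each point and the standard error as bars. Red or blue points are rows whose usage within the gene was higher or lower; in Septin8, Lrrfip1 and Ptbp1 the most downstream 3UTR row rose.

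Rows that rose were richer in G and C, except in 5′ UTRs. In windows of 145 bases from the exon at the peak's centre, the median GC content was 51.7% for 2552 rows that rose, 46.9% for 2294 that fell and 49% for 4175 that did not pass. It was higher in rows that rose for 3′ UTRs (49% against 42.8%) and coding exons (57.2% against 52.4%), but lower for 5′ UTRs (59.3% in 48 windows against 62.1% in 101). The share of rows that rose went from 19.9% where GC was under 40% to 35% where it was over 60%. Predicted folding energy had medians of -36.3, -31.9 and -34.1 kcal/mol for the same classes. Within bands of GC content the order was not the same throughout: energies of rows that rose and fell were -32.3 and -31.5 kcal/mol between 40% and 50% GC, but -48.95 and -52.55 over 60%. Peaks that rose were wider, with a median of 405 bases against 317. The mean GC content of a library's windows weighted by counts, without the 10 highest rows, was 47.4% to 48.5% at E11.5 and 48.3% to 48.8% at E17.5, ranges that overlap.

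The let-7 match shown above, CTACCTC, was sought on the strand of the RNA in 3478 windows of 301 bases in 3′ UTR rows. It was in 3.05% of 820 windows of rows that fell, 1.73% of 1098 that rose and 2.36% of all. After the sites in the most strongly fallen rows had been seen, the rows were also split by size of change. Rows that fell at least 16-fold had the match in 4 of 60 (6.67%), from Hmga2, with more than 1 row, Igf2bp2 and Col3a1. The Col1a2 site lies outside this central window. Those that fell 4-fold to 16-fold had it in 13 of 299 (4.35%), and those that fell less in 8 of 461 (1.74%). The share was 2.44% in rows that did not pass. In rows that rose it was 1.70% under 4-fold, 1.63% from 4-fold to 16-fold and 2.14% (3 of 140) from 16-fold. The sites of miR-9, ACCAAAG, and miR-128, CACTGTG, were in 2.44% and 3.29% of windows that fell and in 2.59% and 4.54% of all. The Pumilio element TGTANATA was in 6.71% of those that fell and 7.76% of all. A match is a description of the letters and not evidence of binding.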

How the data were processed

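The study gives 24 samples of mouse cortex at 4 stages, and 12 columns were read as the STAU2 pull-downs. The counts per peak and strand were deposited by the authors as raw whole numbers. Per the submitters' processing notes, HOMER 4.10 and the builds mm10 and GRCm38 were used; the aligner is not given in the sources used here. A peak score per row was deposited by the authors and was not used. The 4513 rows called Intergenic and 170 other rows with no gene symbol were left out; Intergenic values are all even, and 606 are exactly double a gene row on the same peak and strand.

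The 12 libraries shared 1 fit in edgeR 4.0.16 (R 4.3.3) with TMM scaling, filterByExpr (191 rows removed), quasi-likelihood F tests, and p-values adjusted by Benjamini-Hochberg with a threshold of 0.05. The biological coefficient of variation was 0.342. The procedure was also run on simulated data in which few rows changed, so that run does not bear on the scaling. Rows, counts summed per gene, and usage of a row within its gene were tested. An interval has 95% confidence; it and the floor of 3 counts cover counting error only. Genes named are the 12 largest rises and 12 falls by ratio of mean CPM plus 2 among non-overlapping called rows, up to 4 genes of each list by p, genes by usage, a fixed set and the 10 highest rows; Malat1 of that set has no gene row. Some genes these rules name are not reported here. Members and lists were chosen with earlier results of these data known. Sequences came from GENCODE M21 transcripts (GRCm38) and RefSeq microRNAs, for rows whose peak centre lies in an exon (9077 with a window). Alternatives were other scalings, DESeq2 1.42.0, no filter, a fit of 6 libraries, a replicate block, leaving out Intron rows or each library, and a test against a fold of 2. Taking the exon of largest overlap instead was added after the first results had been seen.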

Additional observations from a re-analysis of the deposited data

How the results depend on the processing

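The split into higher and lower depends on the scaling. Of called rows, 49.8% were higher here. Under plain scaling, by gene-row totals, 7814 rows and 4664 genes were higher and 1301 and 805 lower; with scaling by the total over every peak these were 6842 and 4159, and 1610 and 985. Requiring a fold of at least 2 left 3962 rows, 1957 higher and 2005 lower. Usage without Intron rows gave 78 calls, 24 higher and 54 lower. Leaving out 1 library gave 6295 to 6680 called rows (3072 to 3335 higher, 3223 to 3392 lower), 4094 to 4245 genes (2032 to 2130, 2062 to 2142) and 111 to 126 rows by usage (36 to 51, 70 to 79). Rows whose usage rose numbered 38 without E11.5 replicate 1 and 36 without E11.5 replicate 2. With the replicate block 3847 rows were higher and 3829 lower. Correlations of same-numbered libraries across the stages were 0.098, 0.21 and 0.141, so the numbers were not taken as pairs, and not every library correlated best with its own number. DESeq2 gave 3794 higher and 3725 lower rows. Among the genes named, calls whose sign turned under plain scaling were those of Septin8 row 1 of 3 (0.0565), Mcm4 (0.16), Elavl4 (0.61), Atp2b1 (0.44) and Kif5b (0.23). The usage of Kcnip1 row 1 turned (-0.12) without Intron rows, where the intron row it is compared with is gone. Without the 10 highest rows the difference between stages was 13.6 percentage points for 3UTR, -8.95 for Intron, and turned to -1.77 for 5UTR and -2.86 for Exon. Median GC differed by 4.83 points between rows that rose and fell, 4.64 over the whole exonic part and 4.83 with the exon of largest overlap, and folding energy by -4.4 and -4.35 kcal/mol. That exon rule, added after seeing the data, gave the let-7 match in 1.79% of windows that rose and 3.07% that fell. The cause was not tested. A median of 29 to 37 counts per row at E11.5 limits small changes.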
